A study of Mus musculus with 4 samples.

Results

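The genes described here are 9 members of the interleukin (IL)-4 and IL-21 response of B cells, of 32285 genes in the matrices: the receptor chains *Il4ra* and *Il21r*, the signal transducers *Stat6* and *Stat3*, the induced genes *Fcer2a* and *Il4i1*, and the inhibitors *Socs1*, *Socs3* and *Cish*. The rule lists them by name, with earlier results of these data known, and all 9 were present in both mRNA matrices. The study used germinal center (GC) B cells to ask how DOCK8, a guanine nucleotide exchange factor of hematopoietic cells, acts when B cells seek T cell help. B cells carrying the MD4 transgene, an antigen receptor for hen egg lysozyme (HEL), were transferred into CD45.1+ wild-type (WT) recipients on the C57BL/6 background, which received sheep red blood cells carrying HEL (SRBC-HEL) as antigen. On day 8, HEL+ CD95+ B cells of the spleen were sorted by their CD45 allele and sequenced as 2 mRNA libraries with 2 matching hashtag libraries, in which 6 hashtags marked 6 mice, 3 per group.

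All 4 kinds of sorted cell carried MD4. The CD45.1+ cells were *Dock8* wt/wt without a BCL2 transgene in both groups of mice. The CD45.2+ cells carried a B cell–restricted BCL2 transgene (BCL2.Tg) and were *Dock8* wt/wt in the WT group and *Dock8* cpm/cpm in the DOCK8-deficient group. The cpm allele is a chemically induced point mutation that leaves no DOCK8 protein. BCL2 keeps alive cells that would otherwise be lost, so the CD45.2+ cells model DOCK8 deficiency only in cells with enforced survival. The recipients' own B cells are also CD45.1+, so the gate on HEL binding set the CD45.1+ donor cells apart. The CD45 allele, the transgene and the library coincide and cannot be told apart. Mice were age-matched adults of both sexes, and the sex of each donor was not given in the sources used here.

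IL-4 and IL-21 are the main cytokines of T follicular helper cells. IL-4 binds a receptor made of IL-4Rα, encoded by *Il4ra*, and the common γ chain, encoded by *Il2rg*, and signals mainly through STAT6. IL-21 binds IL-21R with the same γ chain and signals mainly through STAT3. *Fcer2a* encodes CD23, the low-affinity receptor for IgE, which IL-4 raises on B cells, and *Il4i1* encodes a secreted L-amino acid oxidase first found as an IL-4-induced gene. *Socs1*, *Socs3* and *Cish* encode proteins of one family that cytokines induce and that dampen JAK-STAT signaling. In the GC, B cells move between a dark zone (DZ), where they divide, and a light zone (LZ), where they meet antigen and T cells.

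STAT dimers bind short palindromes, TTCNNNGAA for most STATs and TTCNNNNGAA as the spacing preferred by STAT6. The promoter windows of 3 genes are shown because *Fcer2a* and *Socs3* hold the matches found among the members, and *Il4i1* is the member whose levels followed those of *Fcer2a* most closely. Each is the 250 bases before a RefSeq transcript start in GRCm38.p6, written 5′ to 3′ on the strand of the gene, and capitals mark a motif match.
Fcer2a (chr8:3690862-3691111, minus strand): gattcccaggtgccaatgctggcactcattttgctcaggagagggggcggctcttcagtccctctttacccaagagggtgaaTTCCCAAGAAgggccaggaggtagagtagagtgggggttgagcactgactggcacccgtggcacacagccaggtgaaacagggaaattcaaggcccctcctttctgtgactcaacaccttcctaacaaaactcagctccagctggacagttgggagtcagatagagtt
Socs3 (chr11:117969367-117969616, minus strand): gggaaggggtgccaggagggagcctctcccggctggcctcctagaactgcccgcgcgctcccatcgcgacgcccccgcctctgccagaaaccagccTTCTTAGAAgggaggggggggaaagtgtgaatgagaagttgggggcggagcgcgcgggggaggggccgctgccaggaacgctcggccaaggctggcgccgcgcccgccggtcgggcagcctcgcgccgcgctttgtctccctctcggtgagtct
Il4i1 (chr7:44836038-44836287, plus strand): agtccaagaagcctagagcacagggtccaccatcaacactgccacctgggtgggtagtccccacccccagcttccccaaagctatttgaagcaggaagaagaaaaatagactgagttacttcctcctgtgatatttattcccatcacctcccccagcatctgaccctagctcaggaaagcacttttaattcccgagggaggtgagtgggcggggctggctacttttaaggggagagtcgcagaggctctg
The *Fcer2a* match to TTCNNNNGAA began 168 bases before the start, in 1 of the 3 annotated start windows of the gene. The *Socs3* match to TTCNNNGAA began 154 bases before the start. Both patterns, with N as any base, are their own reverse complement, so a match on 1 strand is also a match on the other. The matched letters themselves differ between the strands. Of 32851 promoter windows of the same length, 7.02% held TTCNNNGAA, 5.85% held TTCNNNNGAA and 12.4% held either. Among the 9 members, 1 held each motif, in 11 windows in all. A match describes letters only, and the windows of the other 7 members simply lack these letters.

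In the mm10 annotation (GENCODE M21, GRCm38), *Il4ra* (chr7:125552120-125579474, plus strand) and *Il21r* (chr7:125603429-125633570, plus strand) are neighbors. *Il4i1* lies at chr7:44816387-44840809 on the plus strand and overlaps *Nup62* on the same strand, so its counts may be affected by how reads shared by both genes were assigned. *Fcer2a* lies at chr8:3681737-3694175 (minus strand), *Stat6* at chr10:127642986-127660957 (plus), *Stat3* at chr11:100885098-100939540 (minus) and *Socs3* at chr11:117966079-117970047 (minus). *Socs1* lies at chr16:10782240-10785536 (minus) and *Cish* at chr9:107296026-107302784 (plus).

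After hashtag assignment and filtering, 6488 CD45.2+ and 3204 CD45.1+ cells were kept, of which 7404 were B cells outside the plasma cell clusters. Their number per mouse was 1224–1924 for CD45.2+ *Dock8* wt/wt, 38–88 for CD45.2+ *Dock8* cpm/cpm, 307–626 for CD45.1+ cells of the WT group and 268–453 for CD45.1+ cells of the DOCK8-deficient group. The 12 summed samples, 1 per mouse and sort, held between 298916 and 12580112 unique molecular identifiers (UMIs), with the fewest in the *Dock8* cpm/cpm cells. The kept cells of the libraries shared 15 barcodes. *Dock8* RNA does not check the labels, because a point mutation leaves the transcript: it stood at 95.8–110 CPM (UMIs of a gene scaled to a common library total) among *Dock8* cpm/cpm cells, and at 105–119 CPM among CD45.2+ *Dock8* wt/wt cells. The CD45.2+ *Dock8* cpm/cpm cells had *Ddx3y*, a Y-linked gene, at 54.3–70.2 CPM against 2.07–2.87 CPM in CD45.2+ *Dock8* wt/wt cells, and *Xist*, the RNA of the inactive X, at 284–452 against 1327–1609 CPM. Genotype and donor sex therefore cannot be told apart in any comparison of these cells. The part of cells given to the wrong hashtag in the *Xist* of the *Dock8* cpm/cpm cells was not tested. In the 7404 B cells, 10 T cell markers summed to 20.1–73.8 CPM and the erythroid markers to 22.1–102 CPM per sample, and the summed B cell markers stood at 5978–6918 CPM.

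Levels below are CPM values of counts summed over the cells of 1 mouse and sort. They are not divided by transcript length, so they compare samples and not genes. Over the 12 samples of B cells outside the plasma cell clusters, *Fcer2a* ranged from 175 to 441 CPM with a median of 274, and *Il4i1* from 110.4 to 303 CPM with a median of 189. *Il21r* ranged from 90.5 to 146 CPM, *Il4ra* from 60.2 to 108 CPM, *Stat3* from 57.9 to 83.6 CPM, *Stat6* from 26.8 to 55.9 CPM and *Socs1* from 15.2 to 40.0 CPM. *Socs3* was sparse at 1.79–10.5 CPM from 310 UMIs in all, and *Cish* was nearly absent at 0–1.60 CPM from 29 UMIs. In summed cells, fewer cells with the RNA and less RNA per cell cannot be told apart.

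The induced genes *Fcer2a* and *Il4i1* had their highest levels in the LZ-like clusters and their lowest in plasma cells. Among its LZ clusters, the study found LZ1 closest to naïve B cells. The LZ1 markers of the study include *Ighd*, *Ccr6* and *Gpr183*, and also *Mir155hg*, *Bcl2a1b*, *Marcks* and *Ccnd2*. In the LZ1-like cluster here, the 10 genes with the highest fold over other cells included *Mir155hg*, *Bcl2a1b*, *Marcks*, *Ccnd2* and *Myc*. They did not include *Ighd*, *Ccr6* or *Gpr183*. Clusters were named by the markers they shared with the study's lists, so each name means that the cells were like that state, and the 9 members were left out of the features used for clustering. Even so, *Il4i1* and *Fcer2a* were among the 10 genes with the highest fold in the LZ1-like cluster, and *Il4i1* among those of the LZ2-like cluster, so these levels are a description and no test was made between clusters. In LZ1-like cells, *Fcer2a* stood at 693, 816 and 539 CPM in the 3 mice of CD45.2+ *Dock8* wt/wt cells (682.7 ± 138.5, SD, n = 3) and at 720.1 ± 258.5 CPM (SD, n = 3 of 6 mice with at least 10 such cells) in CD45.1+ cells. In LZ2-like cells it stood at 510.8 ± 86.6 CPM (SD, n = 3) in CD45.2+ *Dock8* wt/wt cells and 533.7 ± 94.0 CPM (SD, n = 6) in CD45.1+ cells. The lowest of the 3 CD45.2+ LZ1-like values lay inside the range of the LZ2-like values, so the order of these neighbors was not clear of the spread between mice. The CD45.2+ *Fcer2a* level was lower in an unnamed cluster (381.0 ± 76.6 CPM), EarlyGC1-like cells (271.8 ± 36.1 CPM), DZ1-like cells (146 CPM) and DZ3-like cells (109 CPM, all n = 3).

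*Il4i1* followed the same order at the top. In LZ1-like cells it stood at 833, 847 and 586 CPM in CD45.2+ *Dock8* wt/wt cells (755.5 ± 147.2, SD, n = 3) and at 662.5 ± 172.8 CPM (SD, n = 3) in CD45.1+ cells. In LZ2-like cells it stood at 457.6 ± 108.8 CPM (SD, n = 3) and 476.0 ± 104.0 CPM (SD, n = 6). The LZ1-like and LZ2-like values of CD45.2+ *Dock8* wt/wt cells did not overlap for *Il4i1*. It was 156 CPM in EarlyGC1-like and 67.3–88.1 CPM in the 3 DZ-like clusters of CD45.2+ cells. Ranked by mean over 13 clusters in CD45.2+ *Dock8* wt/wt cells, 9 of 12 neighboring pairs overlapped between mice for *Fcer2a* and 9 of 12 for *Il4i1*.

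**Figure D1:**
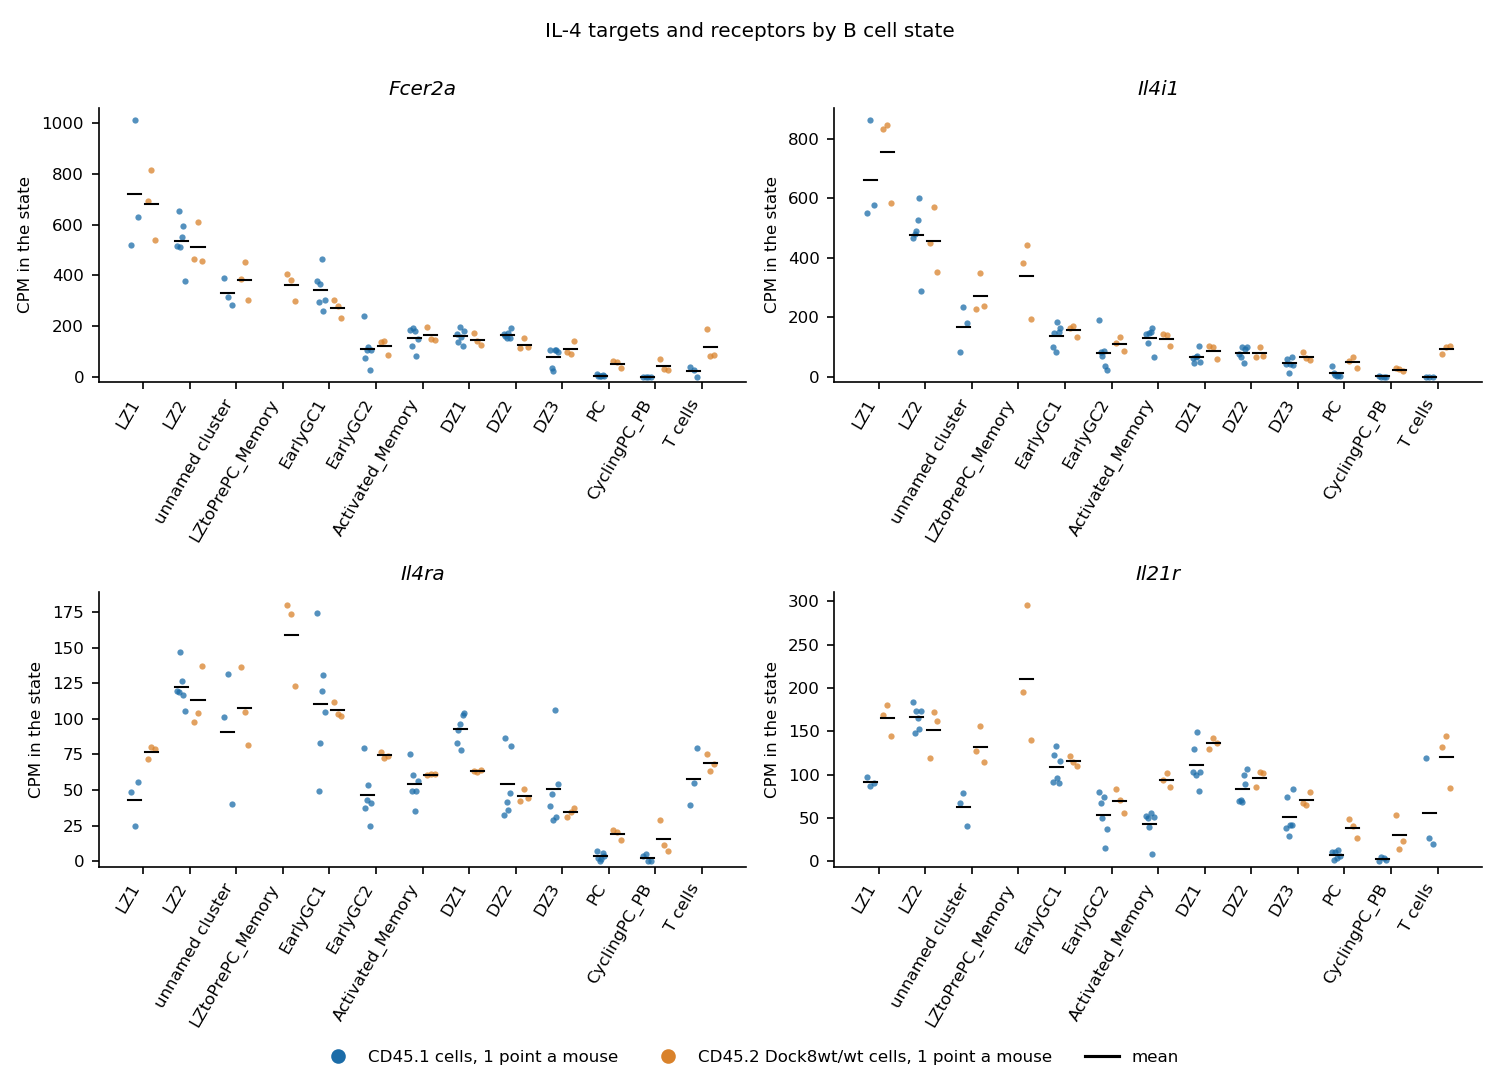
Levels of *Fcer2a*, *Il4i1*, *Il4ra* and *Il21r* by cluster, in CPM on the vertical axis, with 1 point per mouse with at least 10 cells (blue, CD45.1+ cells of all 6 mice; orange, CD45.2+ *Dock8* wt/wt cells of 3 mice) and a black line at the mean. *Fcer2a* and *Il4i1* peak in LZ1-like cells at means of 683 and 756 CPM in the CD45.2+ cells, while the receptor genes are spread more evenly over the LZ-like, EarlyGC-like and DZ-like clusters.

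The receptor genes had flatter profiles. In CD45.2+ *Dock8* wt/wt cells *Il4ra* was highest in LZtoPrePC/Memory-like cells at 158.7 ± 31.2 CPM (SD, n = 3), a cluster with few UMIs per cell (median 1893, or 0.269 of the library median) and 6.14% mitochondrial UMIs. It stood at 113.0 ± 21.4 CPM in LZ2-like, 105.8 ± 5.34 CPM in EarlyGC1-like and 76.8 ± 4.56 CPM in LZ1-like cells (SD, n = 3 each). LZ1-like cells, where *Fcer2a* and *Il4i1* were highest, thus had a lower mean of *Il4ra* than LZ2-like cells, and in CD45.1+ cells the same clusters gave 43.0 ± 16.0 CPM (SD, n = 3) and 122.3 ± 14 CPM (SD, n = 6). DZ1-like cells held 63.5 ± 0.608 CPM in CD45.2+ (SD, n = 3) and 92.8 ± 10.5 CPM in CD45.1+ cells (SD, n = 6), and DZ3-like cells 34.4 and 51.0 CPM.

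*Il21r* was also highest in LZtoPrePC/Memory-like cells at 210.4 ± 78.9 CPM (SD, n = 3), followed by LZ1-like cells at 164.8 ± 17.9 CPM and LZ2-like cells at 150.9 ± 28.0 CPM in CD45.2+ *Dock8* wt/wt cells (SD, n = 3 each). In CD45.1+ cells LZ2-like cells led with 166.2 ± 13.6 CPM (SD, n = 6), and LZ1-like cells held 91.6 ± 5.0 CPM (SD, n = 3). In contrast to *Fcer2a*, the receptor *Il21r* kept 136 CPM in DZ1-like CD45.2+ cells, close to its LZ levels, and 70.9 CPM in DZ3-like cells. For *Il21r*, 10 of 12 neighboring pairs of clusters overlapped between CD45.2+ *Dock8* wt/wt mice, against 7 of 12 for *Il4ra*.

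Of the signal transducers, *Stat6* varied more between clusters than *Stat3*. In CD45.2+ *Dock8* wt/wt cells *Stat6* stood at 87.7 ± 22.1 CPM in the low-UMI LZtoPrePC/Memory-like cells, 52.3 ± 3.47 CPM in LZ1-like cells (SD, n = 3 each) and 24.3–26.0 CPM in the 3 DZ-like clusters. In CD45.1+ cells it was highest in LZ2-like cells at 55.0 ± 11 CPM (SD, n = 6) and again low in the DZ-like clusters, at 20.4–25.1 CPM. *Stat3* stayed between 46.5 and 79.8 CPM in the named clusters of CD45.2+ B cells outside the plasma cell clusters, and between 49.3 and 88.2 CPM in those of CD45.1+ cells with at least 3 mice. In plasma cell (PC)-like clusters *Stat3* stood at 30.5 CPM in CD45.2+ *Dock8* wt/wt cells and 21.5 CPM in CD45.1+ cells.

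The inhibitors had unlike profiles. *Socs1* was highest in the LZ-like clusters, at 46.7 ± 13.3 CPM in LZ2-like and 40.0 ± 5.58 CPM in LZ1-like CD45.2+ *Dock8* wt/wt cells (SD, n = 3 each), with 48.3 ± 15.1 CPM (SD, n = 6) and 42.4 ± 23.7 CPM (SD, n = 3) in CD45.1+ cells. Its level was 11.3–14.9 CPM in the EarlyGC-like and Activated/Memory-like clusters of either sort. *Socs3* instead was at 35.3 ± 10.3 CPM in LZ1-like CD45.2+ *Dock8* wt/wt cells (24.4, 36.7 and 44.8 CPM, from 63 UMIs in 269 cells) and at 2.14 CPM in LZ2-like cells. Activated/Memory-like cells held 10.6 ± 4.39 CPM of *Socs3* (SD, n = 3) and EarlyGC1-like cells 9.57 ± 2.85 CPM (SD, n = 3), while DZ3-like cells held 0.334 CPM. In CD45.1+ cells 1 *Socs3* UMI was counted in 931 LZ2-like cells. The CD45.1+ value in EarlyGC1-like cells, 34.0 CPM, rested on 12 UMIs, with 1 mouse at 147 CPM from 12 cells and the lowest at 0. The mean of *Cish* did not pass 2.89 CPM in any B cell cluster, with 7.88 CPM as the highest value in a mouse, and all its neighboring pairs of clusters overlapped.

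**Figure D2:**
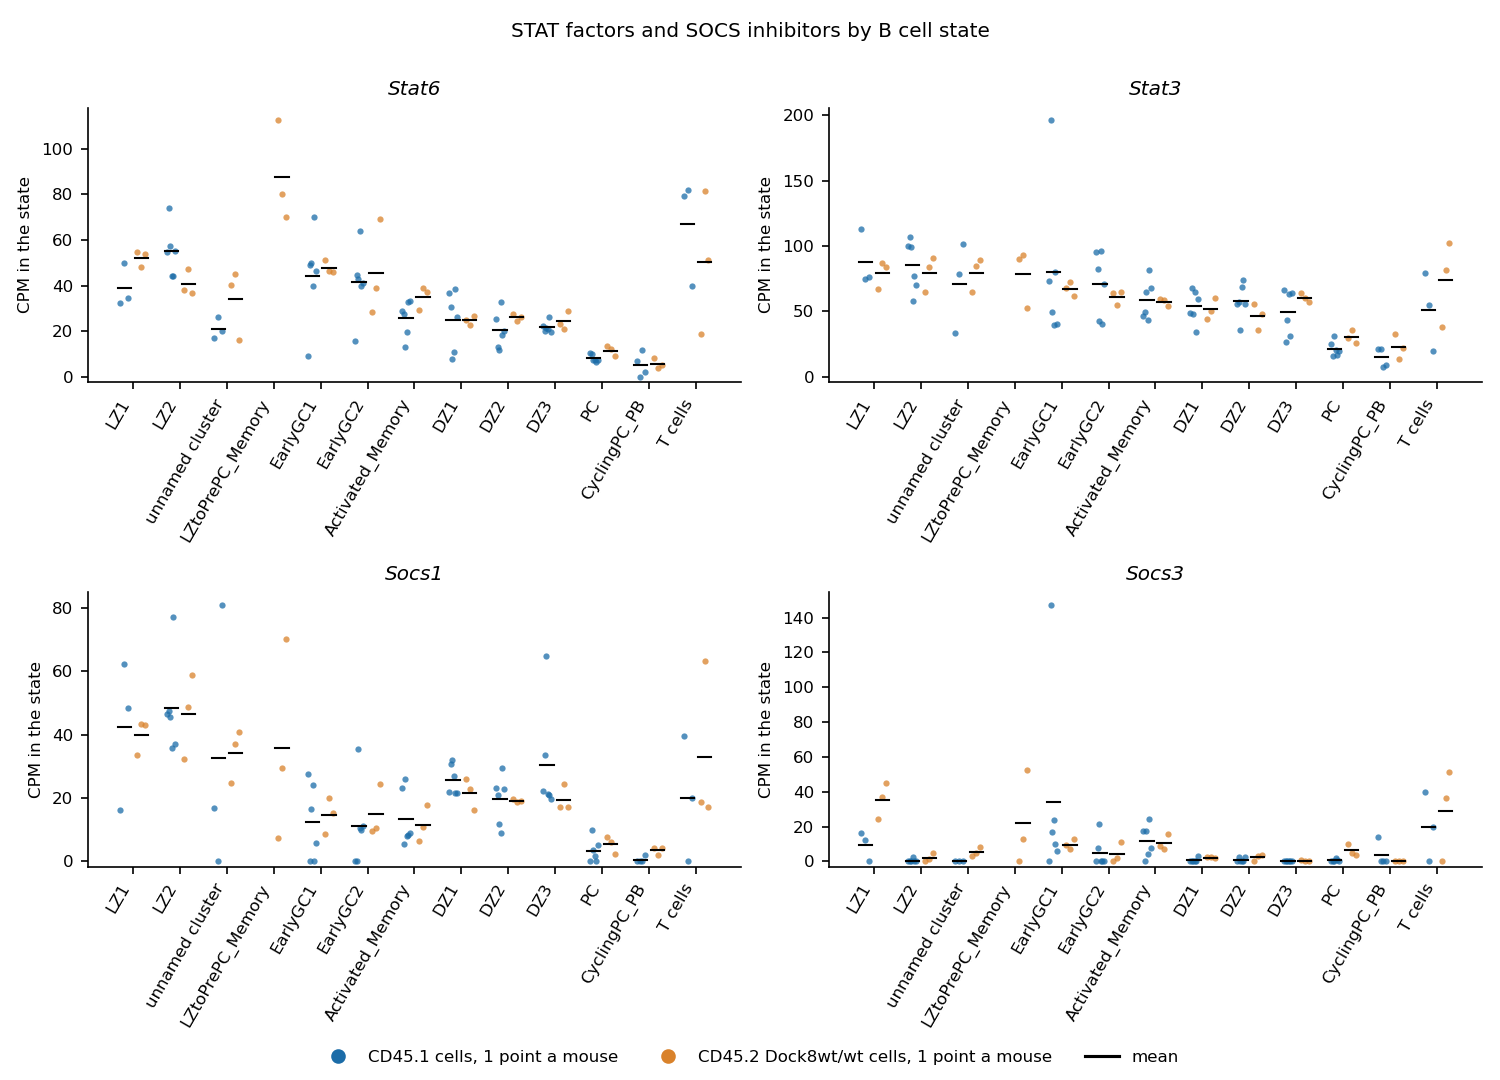
Levels of *Stat6*, *Stat3*, *Socs1* and *Socs3* by cluster in CPM, with points, colors and lines as for the receptor and induced genes. *Socs1* is highest in LZ2-like and LZ1-like cells (means of 46.7 and 40.0 CPM in CD45.2+ *Dock8* wt/wt cells), whereas *Socs3* stands out in the LZ1-like CD45.2+ cells at a mean of 35.3 CPM.

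The members' profiles were compared with each other and with other genes as Pearson correlations of log2(CPM + 10) over 23 profiles, each 1 cluster in 1 sort with at least 50 cells. The profiles share libraries and depth, so these values are descriptions. *Fcer2a* and *Il4i1* were the pair of induced genes and had r = 0.964, or 0.957 over the 19 profiles without plasma cells. The receptor genes *Il4ra* and *Il21r* had r = 0.933 with and 0.751 without plasma cells. *Socs1* and *Socs3* were nearly unrelated, with r = 0.133 and −0.137. Among 2625 other genes, the 3 most like *Fcer2a* were *Cd83* (r = 0.976), *Slamf1* (0.953) and *Ciita* (0.945), and *Il4i1* was most like *Cd83* (0.931) and *Slamf1* (0.917). *Cd83* encodes a surface protein used as an LZ marker, and *Ciita* the master activator of MHC class II genes. The genes most like *Il4ra* were *Hvcn1* (0.979), *Tgfb1* (0.967) and *Chst3* (0.966), and those most like *Il21r* were *Irf2bp2* (0.971), *Sema4d* (0.950) and *Prpf38b* (0.945). *Socs1* was most like *Slamf1* (0.929), *Gripap1* (0.924) and *Swap70* (0.911). *Socs3*, the sparsest member compared, reached no more than 0.793, with *Tmem123*.

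The main comparison of the study asks what the loss of DOCK8 changes within CD45.2+ BCL2.Tg cells. No member passed the test between *Dock8* cpm/cpm and *Dock8* wt/wt cells: 0 of the 8 members with enough counts were called (edgeR quasi-likelihood, Benjamini-Hochberg adjusted p under 0.05), where 0.205% of the 10243 genes tested were called. At an unadjusted p under 0.05 the fit gave 1 of the 8 members, *Fcer2a*, and 808 genes in all, and DESeq2, which gave an adjusted p for 2 of the members, called neither. *Fcer2a* stood at 441, 321 and 246 CPM in the 3 *Dock8* cpm/cpm mice and at 229, 274 and 175 CPM in the 3 *Dock8* wt/wt mice. Of these, 2 *Dock8* cpm/cpm mice lay above all *Dock8* wt/wt mice and the third lay among them. On the log2 scale the fold change of *Fcer2a* was 0.42 with an SE of 0.163 (95% interval 0.0997 to 0.738 before adjustment), and its adjusted p was 0.471. LZ1-like cells, where *Fcer2a* was highest, made up 19.6% of the B cells of *Dock8* cpm/cpm mouse 1, 5.26 and 7.95% of those of the other *Dock8* cpm/cpm mice and 5.20–6.00% in *Dock8* wt/wt mice, and their part in the *Fcer2a* value was not tested. Without *Dock8* cpm/cpm mouse 1 the value was 0.16 (adjusted p = 0.866), and over all alternatives it ran from 0.16 to 0.62, with adjusted p between 0.0757 and 0.866.

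For the other members the intervals of the *Dock8* difference included 0. *Il4ra*, the IL-4 receptor chain, stood at 108, 60.2 and 67.1 CPM in *Dock8* cpm/cpm against 71.0, 76.9 and 62.8 CPM in *Dock8* wt/wt cells (log2 fold change 0.02, 95% interval −0.33 to 0.36). *Il21r* stood at 146, 120.4 and 123 CPM against 106, 123 and 102 CPM (0.11, −0.15 to 0.37). *Il4i1* spread widely among the *Dock8* cpm/cpm mice at 303, 110.4 and 150.1 CPM, and the *Dock8* wt/wt mice at 168, 227 and 124 CPM lay within that range (−0.01, −0.46 to 0.44). The transducers gave 0.14 (−0.27 to 0.56) for *Stat6* and 0.04 (−0.28 to 0.36) for *Stat3*. *Socs1* gave −0.36 (−1.04 to 0.31), and *Socs3*, with 3 UMIs in each *Dock8* cpm/cpm mouse, gave −0.19 (−1.32 to 0.93). No member had non-overlapping groups, which 19.3% of the genes tested had, and the median log2 fold change was 0.0304 over the 8 members. At 38–88 cells per *Dock8* cpm/cpm mouse, these intervals leave room for changes of the sizes at their ends.

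**Figure D3:**
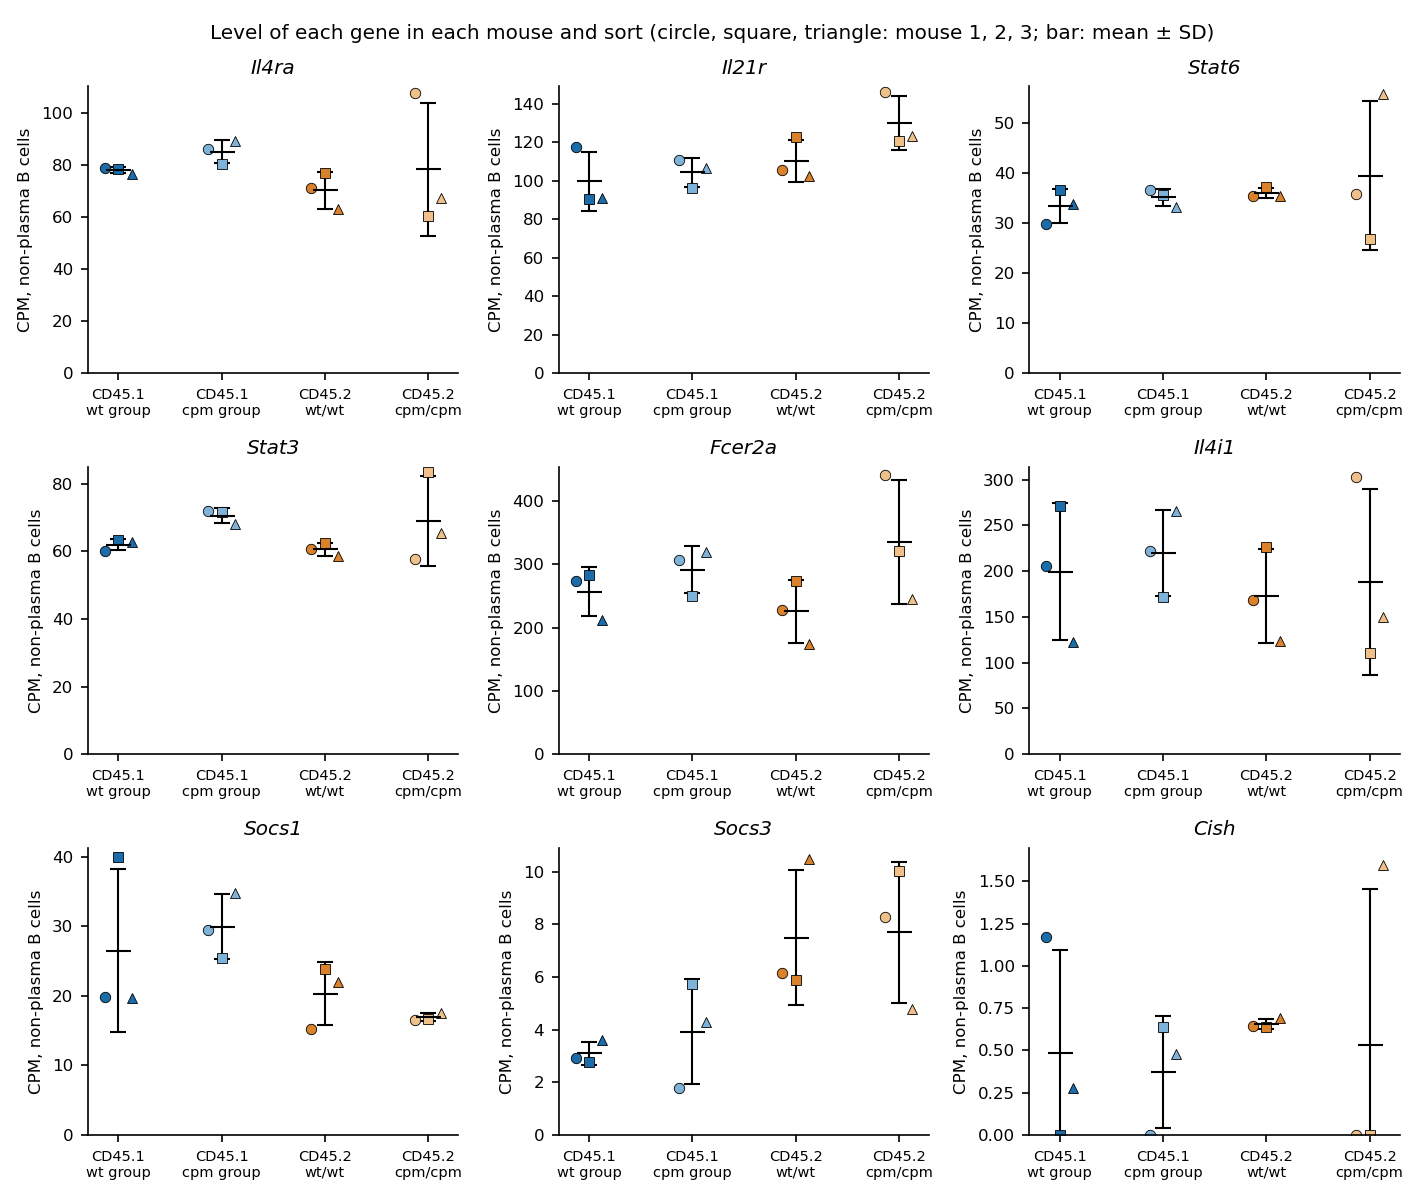
Level of each of the 9 members in B cells outside the plasma cell clusters, in CPM, for the 4 groups of cells, with a circle, square and triangle for mice 1, 2 and 3 and a bar at the mean ± SD. The groups overlap for every member between *Dock8* cpm/cpm and *Dock8* wt/wt CD45.2+ cells, and *Socs3* is higher in CD45.2+ than in CD45.1+ cells, at 7.50 ± 2.58 against 3.10 ± 0.445 CPM in the WT group.

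Under the main hashtag rule, the *Dock8* comparison within clusters could be made only in EarlyGC1-like cells. No other cluster name had at least 10 cells in every CD45.2+ mouse. The EarlyGC1-like cells joined clusters of 1119 and 1021 barcodes that took this name, and the part of their mix in the values below was not tested. There *Fcer2a* stood at 543, 541 and 318 CPM in *Dock8* cpm/cpm (35, 52 and 55 UMIs in 12, 16 and 34 cells) and at 305, 277 and 233 CPM in *Dock8* wt/wt cells. Every *Dock8* cpm/cpm mouse lay above every *Dock8* wt/wt mouse, at 467.1 ± 129.6 against 271.8 ± 36.1 CPM (SD, n = 3 each), as in 10% of the genes tested in this cluster. The log2 fold change of 0.61 (SE 0.168) did not pass the edgeR test at an adjusted p = 0.219, where 0.224% of 4910 genes did. *Fcer2a* was called under both other rules of assigning cells to hashtags, which kept more *Dock8* cpm/cpm cells. With centered log-ratio (CLR) values taken over each cell, the mice stood at 492, 403 and 400.5 against 303, 274 and 254 CPM (log2 fold change 0.56, SE 0.0936, adjusted p = 4.46e-05, 61, 36 and 139 *Dock8* cpm/cpm cells, 0.518% of 7139 genes called). With the rule that the top hashtag exceed the next 3-fold, they stood at 506, 401 and 394 against 298, 288 and 231 CPM (0.56, SE 0.0997, adjusted p = 0.000609, 52, 49 and 164 cells, 0.522% of 6895 genes called).

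The groups did not overlap under either of these rules, as in 9.74% and 9.95% of the genes tested. The *Fcer2a* difference in EarlyGC1-like cells thus lay between 0.56 and 0.61 under the 3 rules, and the call depended on the rule. The CD45.1+ EarlyGC1-like cells of the same mice, all *Dock8* wt/wt, stood at 377, 295 and 365 CPM in the DOCK8-deficient group and 463, 261 and 302 CPM in the WT group, with overlapping groups (0.05, adjusted p = 0.99 by edgeR). These are values of the main rule, and the CLR rule over each cell left too few CD45.1+ cells of the DOCK8-deficient group. Whether the *Dock8* difference exceeds that of the CD45.1+ cells was not tested within this cluster. *Ddx3y* in these EarlyGC1-like CD45.2+ cells stood at 62.1–114 CPM in *Dock8* cpm/cpm and 0.406–5.59 CPM in *Dock8* wt/wt mice, and its part in the *Fcer2a* difference cannot be told apart from that of the genotype. The mean of *Xist* in *Dock8* cpm/cpm cells was 150.7 CPM under the main, 275.4 under the per-cell CLR and 147.6 under the 3-fold rule. *Ddx3y* in *Dock8* wt/wt cells had means of 2.59, 8.72 and 4.60 CPM in that order. The part of cells given to the wrong hashtag was not tested. In DZ2-like cells, *Il4i1* was lower in *Dock8* cpm/cpm cells under the CLR rule over each cell (−0.87, adjusted p = 0.0170, with 0.116% of genes called). Under the 3-fold rule the *Il4i1* value was −0.60 (adjusted p = 0.808, with 0.047% of genes called), and under the main rule this cluster had too few cells to be tested. In the other clusters with enough cells under the CLR rule over each cell, no member was called: 0.66% of genes were called in LZ1-like, 0.204% in Activated/Memory-like, 0.0469% in DZ3-like, 0.0347% in PC-like and 0.832% in unnamed cells. No member was called under the 3-fold rule in LZ1-like (1.36% of genes called) or DZ3-like cells (0.031%).

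**Figure D4:**
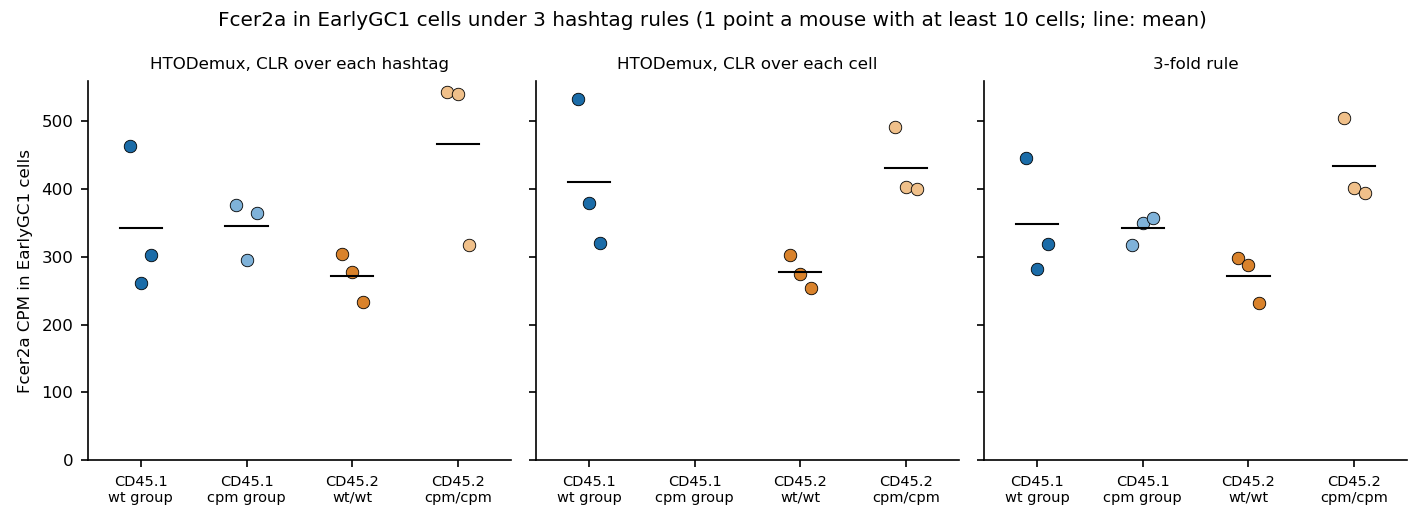
*Fcer2a* in EarlyGC1-like cells in CPM, with 1 point per mouse with at least 10 cells and a line at the mean, for the 4 groups of cells under the 3 rules of hashtag assignment. The CD45.1+ cells of the DOCK8-deficient group are absent under the CLR rule over each cell, which left too few of them. Under each rule the 3 *Dock8* cpm/cpm mice lie above the 3 CD45.2+ *Dock8* wt/wt mice, at 318–543 against 233–305 CPM under the main rule, as 9.74–10% of the genes tested did.

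The CD45.1+ cells were of 1 genotype in both groups, and their comparison shows how far the members move with the recipient group alone. None of the 7 members tested was called, and neither was any of the 8663 genes tested (0%; 593 at an unadjusted p under 0.05, and 0 by DESeq2). All 7 log2 fold changes were positive in the DOCK8-deficient group, with a median of 0.14. *Il4ra* stood at 85.9, 80.1 and 89.0 CPM in the DOCK8-deficient group and 78.8, 78.3 and 76.6 CPM in the WT group (0.09, adjusted p = 0.906 by edgeR). *Stat3* stood at 72.0, 71.9 and 68.1 CPM against 60.1, 63.3 and 62.7 CPM (0.14, adjusted p = 0.820 by edgeR). For both genes the groups did not overlap, as in 11.5% of the genes tested, 7.5% in this direction. *Fcer2a* gave 0.17, *Il4i1* 0.15, *Socs1* 0.20, *Il21r* 0.05 and *Stat6* 0.03, each with overlapping groups. Within the 8 clusters that could be tested, no member was called either, where 0.0706% of genes were called in DZ1-like, 0.0549% in PC-like, 0.0385% in DZ3-like, 0.0216% in DZ2-like and 0.0171% in LZ2-like cells and 0% in the other 3. The LZ2-like share of these B cells was 33.6–52.9% in the DOCK8-deficient group and 22.0–48.8% in the WT group, and its part in these values was not tested.

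Next, the sorts were compared, CD45.2+ BCL2.Tg against CD45.1+ cells, within the 3 mice of the WT group, with the mouse as a block. *Socs3* was the only member called, of 8 tested, where 3.31% of 10709 genes were called, 1.88% as higher in CD45.2+ cells. It stood at 6.15, 5.88 and 10.5 CPM in CD45.2+ and 2.92, 2.78 and 3.61 CPM in CD45.1+ cells, higher in 3 of 3 mice (log2 fold change 1.30, SE 0.286, adjusted p = 0.0287). The *Socs3* counts behind these values were 76, 74 and 106 UMIs against 5, 5 and 13 UMIs. In the DOCK8-deficient group, *Socs3* was also higher in CD45.2+ cells in 3 of 3 mice, at 8.27, 10.0 and 4.79 against 1.79, 5.72 and 4.29 CPM, but from 3 UMIs in each CD45.2+ sample. Of the 256 *Socs3* UMIs of the CD45.2+ cells of the WT group, 33.6% came from Activated/Memory-like, 24.6% from LZ1-like and 20.3% from EarlyGC1-like cells. Of the 23 CD45.1+ UMIs, 52.2% came from Activated/Memory-like cells and 0 from 35 LZ1-like cells, which allows up to 17.2 CPM (95% Poisson limit, counting error only) against 34.7 CPM (26.7–44.4) in 269 CD45.2+ LZ1-like cells. LZ1-like cells made up 5.20–6.00% of CD45.2+ and 1.34–3.35% of CD45.1+ B cells in these mice, and the 6 GC markers summed to 378–453 CPM in CD45.2+ against 506–696 CPM in CD45.1+ B cells, so that the sorts did not overlap. The part of these differences in the *Socs3* value was not tested. Without the LZ1-like cells, a cut chosen after seeing the data, the *Socs3* value was 0.93 (adjusted p = 0.125 by edgeR). The *Socs3* call also did not hold by DESeq2 (1.26, adjusted p = 0.304), under either other hashtag rule (1.28, adjusted p = 0.0683, and 1.02, adjusted p = 0.0756) with any 1 mouse left out (adjusted p = 0.103–0.111) or without the mouse block (1.18, adjusted p = 0.10).

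The other 7 members did not pass this test. *Fcer2a* was at −0.20 (SE 0.0797, adjusted p = 0.186 by edgeR) and *Il4i1* at −0.18 (SE 0.0835, adjusted p = 0.256 by edgeR). *Il4ra* gave −0.17, *Socs1* −0.33, *Il21r* 0.14, *Stat6* 0.09 and *Stat3* −0.05, and the median over the 8 members was −0.109. *Il4ra* and *Fcer2a* were lower, and *Stat6* and *Socs3* higher, in CD45.2+ cells of all 3 mice, a concordance that 40.8% of the genes tested showed. Without the LZ1-like cells *Fcer2a* and *Il4i1* were called as lower, at −0.33 (adjusted p = 0.0406 by edgeR) and −0.39 (adjusted p = 0.0475 by edgeR), where 3.27% of 10671 genes were called. This cut was chosen after seeing the data and removes the cluster where both genes were highest. That cluster held 15.5% of the CD45.2+ and 6.36% of the CD45.1+ *Fcer2a* UMIs of these B cells. For *Il4i1* it held 22.3% and 9.52%, so leaving it out by itself lowers both values. The LZ2-like share, where both genes were also high, was 1.85–13.1% of CD45.2+ and 22.0–48.8% of CD45.1+ B cells in these mice, and its part in these differences was not tested.

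**Figure D5:**
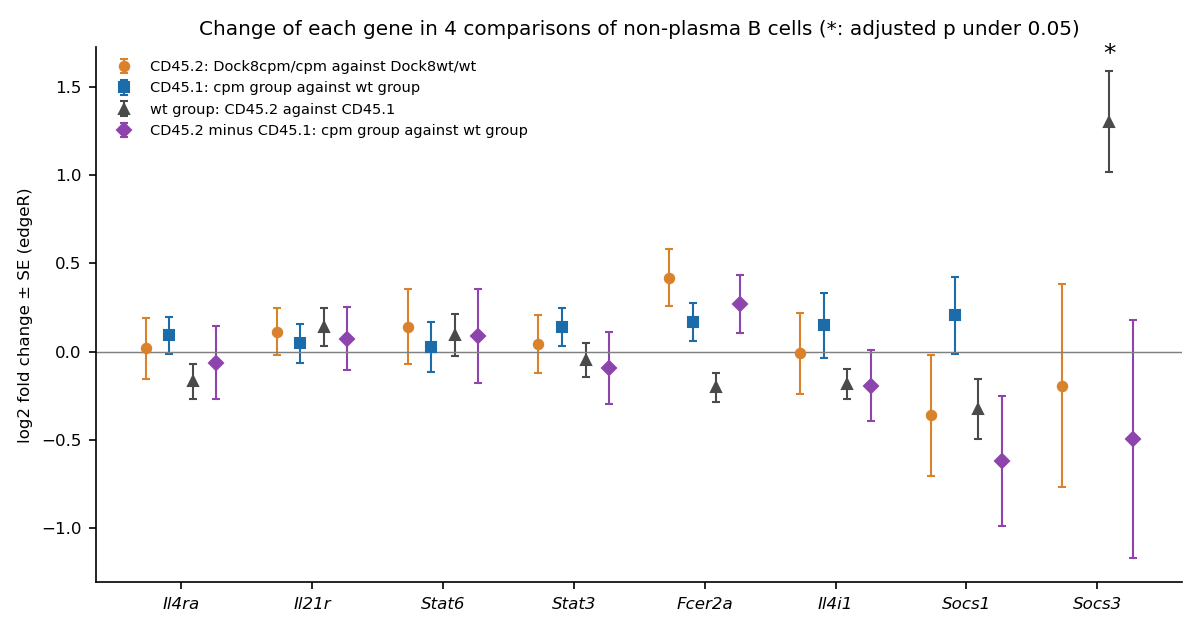
Log2 fold change of each of the 8 members that could be tested in the 4 comparisons, with bars of 1 standard error (edgeR). *Socs3* between the sorts, at 1.30, is the only value marked with an asterisk for an adjusted p under 0.05, and *Fcer2a* has the largest positive *Dock8* value at 0.42.

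Within clusters of the WT group, the sorts differed for a few members. No member was called between the sorts in LZ2-like (2.56% of genes called), EarlyGC1-like (1.15%), DZ1-like (2.82%), DZ2-like (2.96%) or DZ3-like cells (1.85%) under the main hashtag rule. Under the CLR rule over each cell *Il4i1* was called higher in CD45.2+ DZ1-like (0.98, 4.23% of genes called) and DZ2-like cells (0.75, 3.39%), and under the 3-fold rule *Il4ra* was called lower in DZ1-like cells (−0.52, 4.1%). In Activated/Memory-like cells *Il21r* stood at 94.3, 101.5 and 86.2 CPM in CD45.2+ and 55.2, 8.17 and 51.1 CPM in CD45.1+ cells of the WT group (log2 fold change 0.86, SE 0.192, adjusted p = 0.00055 by edgeR, with 2.81% of 8290 genes called). The groups did not overlap, as in 14.5% of the genes tested in this direction, and 1 CD45.1+ mouse, at 8.17 CPM from 1 UMI in 25 cells, lay far below the others. *Il21r* was called under the other hashtag rules too, at 0.69 (adjusted p = 0.0460, 1.54% of genes called) and 0.80 (adjusted p = 7.28e-05, 4.34%). In EarlyGC2-like cells *Il4i1* stood at 112, 133 and 87.1 CPM in CD45.2+ and 85.4, 35.1 and 22.4 CPM in CD45.1+ cells (1.41, SE 0.321, adjusted p = 0.000645 by edgeR, with 4.78% of genes called). The 3-fold rule called *Il4i1* (1.41) and *Fcer2a* (0.86) there, with 4.96% of genes called, and the other rule left too few cells. In PC-like cells 5 of the 9 members were called higher in CD45.2+ cells, where 22.1% of 8859 genes were called, 11.5% as higher: *Fcer2a* (3.80), *Il4i1* (2.94), *Socs3* (2.44), *Il21r* (1.95) and *Il4ra* (1.93).

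RNA from outside the cell may bear on these values, since droplets can take up free RNA. Its amount was not measured here, and the source of B cell RNA in the T cell-like cells was not tested. In the T cell-like cluster of the WT group, whose cells should lack CD23, *Fcer2a* gave 24 UMIs in 57 CD45.2+ library cells, or 108 CPM (95% Poisson interval 69.2–161), and 1 UMI in 32 CD45.1+ library cells, or 8.45 CPM (0.214–47.1). *Il4i1* gave 94.5 CPM (58.5–144) in these cells of the CD45.2+ library and 0 UMIs in the CD45.1+ library, which allows up to 31.2 CPM. The PC-like levels of *Fcer2a* and *Il4i1* in CD45.2+ cells, 52.7 and 51.1 CPM, were below those of the T cell-like cells of the same library. The PC-like levels of *Il21r* and *Socs3*, 38.5 and 5.97 CPM, also lay below those of the T cell-like cells, 126 and 31.5 CPM, though T cells express both genes. The *Il4i1* level of CD45.2+ EarlyGC2-like cells, 110.7 ± 22.9 CPM (SD, n = 3), lay within the interval of the T cell-like cells. So did *Il4i1* in CD45.2+ DZ1-like, DZ2-like and DZ3-like cells, at 88.1, 78.7 and 67.3 CPM, and *Fcer2a* in EarlyGC2-like, DZ1-like, DZ2-like and DZ3-like cells, at 120.9, 146, 127 and 109 CPM. Equal CPM need not mean equal UMIs per cell. The CD45.2+ library had a median of 3349.5 UMIs in T cell-like, 7876 in PC-like and 11700 in DZ2-like cells. *Il4i1* gave 21 UMIs in 57 T cell-like and 562 UMIs in 577 DZ2-like cells of the WT group. *Fcer2a* gave 24 and 911 UMIs in these cells, and 600 UMIs in 1357 PC-like cells. The part of free RNA in the differences of these genes in PC-like, EarlyGC2-like and DZ-like cells was not tested. The T cell-like level of *Il21r* was 126 CPM (83.7–182) in the CD45.2+ library and 33.8 CPM in the CD45.1+ library, and the part of free RNA in the Activated/Memory-like difference was not tested. The LZ-like levels of *Fcer2a* and *Il4i1*, at 457.6 CPM and above in CD45.2+ *Dock8* wt/wt cells, were several times the T cell-like levels.

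The difference between the sorts was last compared between the groups of mice, which asks whether the *Dock8* comparison goes beyond that of the CD45.1+ cells from the same mice. None of the 8 members tested was called, where 0.0318% of 9424 genes were called, and none had an unadjusted p under 0.05 or was called by DESeq2. *Fcer2a* gave 0.27 (95% interval −0.05 to 0.59), *Socs1* −0.62 (−1.35 to 0.11) and *Socs3* −0.50 (−1.82 to 0.82). The *Dock8* value of *Fcer2a* over all B cells outside the plasma cell clusters was therefore not shown to exceed that of the CD45.1+ cells.

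The rest of the pathway was read from 31 other genes of IL-4 and IL-21 signaling. Of the ligands, *Il4* gave 4 UMIs in 114 T cell-like cells and 7 in 7404 B cells outside the plasma cell clusters, and *Il21* gave 1 and 3, so neither was measurable at this depth. *Il2rg*, the γ chain shared by both receptors, ranged from 87.0 to 159.8 CPM over the samples. None of the list was called in the *Dock8* comparison (25 tested), between the CD45.1+ groups (22 tested) or in the comparison of both (24 tested). At an unadjusted p under 0.05 these fits gave 7 of 25, 1 of 22 and 5 of 24 genes of the list. Among all genes tested they gave 808 of 10243, 593 of 8663 and 551 of 9424. The share was larger in the list than among all genes in the *Dock8* comparison and the comparison of both. It was smaller between the CD45.1+ groups. The list was chosen with earlier results of these data known, and it was not tested as a set. Between the sorts 26 were tested, with 7 at an unadjusted p under 0.05, a larger share than the 2062 of all 10709 genes tested. Of the 26, 1 was called higher and 1 lower in CD45.2+ cells, against 1.88% and 1.44% of all genes tested. The higher gene was *Irf4*, a transcription factor of plasma cell differentiation, at 23.5 ± 0.99 against 13 ± 2.89 CPM (SD, n = 3 each, log2 fold change 0.83, adjusted p = 0.0206 by edgeR). The lower gene was *Ptpn6*, which encodes the phosphatase SHP-1, at 325.1 ± 9.18 against 395.9 ± 21.1 CPM (SD, n = 3 each, −0.29, adjusted p = 0.0412 by edgeR). The median log2 fold change over the list was −0.0315 in the *Dock8* comparison and 0.0648 between the sorts. The summed plasma cell markers of these B cells stood at 1714–1951 CPM in CD45.2+ and 1191–1498 CPM in CD45.1+ cells of the WT group, and their part in the *Irf4* difference was not tested.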

How the data were processed

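Hashtag-labeled splenic MD4 B cells were measured by droplet 3′ single-cell RNA sequencing in 2 mRNA and 2 hashtag libraries. The deposited values are raw UMI counts for each gene, with hashtag oligonucleotide counts in separate matrices, which the authors made with Cell Ranger 5.0.1 on mm10 and analyzed with Seurat 4.0, per the submitters' processing notes. The mRNA libraries held 24241 (CD45.2) and 5232 (CD45.1) barcodes, and 14617 and 4857 were also in the hashtag matrix. A deposited table paired each hashtag with a mouse and group.

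Cells with under 10% mitochondrial UMIs and 100–5500 genes were kept where HTODemux (Seurat 5.3.0, R 4.3.3, quantile 0.99, CLR over each hashtag) called a singlet. It called 8048 CD45.2 and 1562 CD45.1 barcodes hashtag doublets and left 202 *Dock8* cpm/cpm cells, and the CD45.2 total is below the one in the study's methods. Scrublet called 0 of 10911 and 30 of 4459 cells, so the top 6% by score were removed only as an alternative. Clustering used the 10911 CD45.2 and 4459 CD45.1 barcodes that passed the filters and were singlets under any of the 3 hashtag rules. Some of these were not singlets by the main rule. The LZtoPrePC/Memory-like medians of UMIs and mitochondrial UMIs and the genes with the highest fold are over these barcodes. Clusters were made with SCTransform (3000 variable genes without the 9 members and 6 sex-linked genes, 30 components, resolution 1.2), giving 21 clusters. A cluster took the name of the study's marker list that shared most genes, at least 3, with its top 50. Clusters of the same name were joined, as for the EarlyGC1-like, Activated/Memory-like and PC-like cells. Counts of B cells outside plasma cell clusters were summed per mouse and sort and tested with edgeR 4.0.16 (quasi-likelihood, TMM, filterByExpr, Benjamini-Hochberg at 0.05), with DESeq2 1.42.0 as an alternative. The sort comparison had the mouse as a block, since both sorts came from the same animals by hashtag. CPM values were computed here per summed sample. In simulated data with the real depths and 1 common dispersion for all genes, the *Dock8* comparison recovered 50.5% of 2-fold and 86.9% of 4-fold changes. The sort comparison recovered 80.6% and 98.0%. The simulation held no dispersion of single genes and no differences in cluster mix between mice, so it does not give the recovery of the members.

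Named genes were the 9 members, *Il4*, *Il21*, *Il2rg*, at most 5 called genes per comparison of the pathway list, and the 3 genes most like each member with at least 300 UMIs (mean CPM of at least 50), of which 1 is not reported here. Members and lists were chosen with earlier results of these data known. All samples shared 2 libraries, and Poisson intervals cover counting error only.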

Additional observations from a re-analysis of the deposited data

How the results depend on the processing

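Of 523 member fold changes refitted under the alternatives, 464 kept their direction and side of the threshold, 8 lost and 5 gained a call, and 46 changed sign, none of which was called in either fit. Blocking by mouse changed *Socs3* between the sorts: without the block its value was 1.18 (adjusted p = 0.10, edgeR), and the number of genes called was 355 with and 355 without it. Over all alternatives *Socs3* ran from 0.93 to 1.63, with adjusted p from 0.000294 to 0.304. With WT-group mouse 3 left out, *Il4i1* (−0.27, adjusted p = 0.00562) and *Socs1* (−0.61, adjusted p = 0.00878) were called between the sorts, where 14.2% of genes were called, and with plasma cells included *Il21r* was (0.42, adjusted p = 0.00439), where 17.2% were.
The log2 values that changed sign were these. In the *Dock8* comparison, *Socs1* was 0.0578 under the CLR rule over each cell, *Il4i1* 0.0435 under the 3-fold rule, 0.0205 with stricter cell filters (under 5% mitochondrial UMIs, over 500 genes), 0.105 with plasma cells, 0.0254 by DESeq2 and 0.00918 without LZtoPrePC/Memory-like cells, and *Il4ra* −0.0226 without the filter on low counts. Without LZ1-like cells *Stat6* was −0.0157 and *Socs3* 0.119. With a mouse left out, *Il4ra* ran from −0.25 to 0.14, *Stat6* from −0.33 to 0.28, *Stat3* from −0.0925 to 0.12, *Il4i1* from −0.47 to 0.22 and *Socs3* from −0.42 to 0.15. In the CD45.1+ comparison, *Stat3* was −0.19 and *Socs1* −0.0501 under the CLR rule over each cell, and *Stat6* −0.0174 with stricter cell filters. With a mouse left out, *Il21r* ran from −0.0222 to 0.16, *Stat6* from −0.0416 to 0.0648, *Il4i1* from −0.12 to 0.42 and *Socs1* from −0.00973 to 0.55. Between the sorts, with plasma cells included, *Il4ra* was 0.11, *Stat3* 0.14, *Fcer2a* 0.0786 and *Il4i1* 0.108, and with a mouse left out *Stat3* ran from −0.0826 to 0.00107. In the comparison of both, the CLR rule over each cell gave *Stat6* −0.0980, *Stat3* 0.29, *Socs1* 0.19 and *Socs3* 0.0595, the 3-fold rule *Il4ra* 0.0279 and plasma cells *Il21r* −0.0264, and without LZ1-like cells *Il4ra* was 0.0246 and *Stat6* −0.0467. With a mouse left out, *Il4ra* ran from −0.33 to 0.14, *Il21r* from −0.0548 to 0.21, *Stat6* from −0.36 to 0.28, *Stat3* from −0.19 to 0.0130 and *Il4i1* from −0.67 to 0.17.

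Numbers of genes called moved more than those of members. The settings tested unlike numbers of genes, so shares of those tested are given in brackets. The *Dock8* comparison called 21 genes (0.205% of 10243), and 12 (0.111%) under the 3-fold hashtag rule and 130 (1.22%) with plasma cells. DESeq2 gave an adjusted p for only 934 genes and called 107 (11.5%). Without a filter on low counts 146 were called (0.782% of 18664), and with a mouse left out 7–58 (0.0627–0.885%). The CD45.1+ comparison called 0, and 1 (0.011%) with plasma cells, 52 (0.352%) without the filter and 0–7 (at most 0.0781%) with a mouse left out. The sort comparison called 355 (3.31%), and 196 (1.79%) under the 3-fold rule, 1947 (17.2%) with plasma cells and 186 (2%) by DESeq2. It called 805 (4.29%) without the filter and 74–1508 (0.706–14.2%) with a mouse left out, the most without WT-group mouse 3. The comparison of both called 3 (0.0318%), and 1 under either other hashtag rule, 26 (0.265%) with plasma cells, 39 (0.205%) without the filter and 1–35 (0.0105–0.38%) with a mouse left out. Within clusters, the CLR rule over each cell and the 3-fold rule gave 37 and 36 genes in place of 11 for *Dock8* in EarlyGC1-like cells. Between the sorts they gave 128 and 379 in place of 233 in Activated/Memory-like, 340 and 328 in place of 214 in DZ1-like and 36 and 112 in place of 62 in EarlyGC1-like cells. The 3-fold rule gave 4 in place of 0 in Activated/Memory-like and 3 in place of 1 in DZ3-like CD45.1+ cells. The causes were not tested. Leaving out LZ1-like or LZtoPrePC/Memory-like cells was chosen after seeing the data and gave 15 and 29 genes for *Dock8* and 349 and 372 between the sorts. Depth limits *Socs3*, *Cish* and the values of the *Dock8* cpm/cpm cells.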
